A study of Mus musculus with 49 samples.

Results

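Inguinal fat was compared with epididymal fat in C57BL/6 mice, a widely used inbred laboratory strain, by RNA-seq. The labels gave 9 such libraries of the 49 samples in the series, 4 of inguinal white adipose tissue (iWAT) and 5 of epididymal white adipose tissue (eWAT), and the members were chosen by strain, depot and diet alone. All came from mice that had eaten a low fat control diet (Research Diet D12450B) for 12 weeks, with no drug or transgene. Epididymal (4 libraries) and inguinal (4 libraries) fat of 129S1/SvImJ, a second inbred strain, on the same diet for the same time, entered the same model and served to ask where the depot difference of C57BL/6 departed from that of the other strain. RNA was prepared with Trizol followed by RNeasy, made into TruSeq libraries and sequenced on an Illumina Genome Analyzer. Sex, age and the number of mice behind each of these libraries are not stated in the labels, and the p-values therefore cover only variation among these libraries, which may be technical. The labels place the depots in separate experiments, with library numbers 1 to 5 for C57BL/6 epididymal and 26 to 29 for C57BL/6 inguinal fat, so depot and experiment cannot be told apart within C57BL/6.

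Epididymal fat is a visceral depot that lies in the abdominal cavity beside the testis and is covered by mesothelium, the single layer of flat epithelium-like cells that lines the cavity. Inguinal fat is a subcutaneous depot at the hind limb that holds a lymph node and nerve branches, and its adipocytes can take on a beige, heat-producing state marked by the uncoupling protein Ucp1. The depots arise from different embryonic regions, and their adipocytes and progenitors keep a positional code of Hox and other transcription factors into adult life.

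Each library held 1 normalized value per transcript, a whole number with a floor of 1 and a shared maximum of 267214. The depth behind the values is unknown, and values were compared between libraries, never between genes. The 4 C57BL/6 inguinal libraries were coarser than the others. They held 467 to 679 distinct values against 1691 to 1758 in C57BL/6 epididymal fat, the floor held 32.06% to 37.73% of their transcript values against 23.3% to 24.6%, and their lowest value above the floor was 5 to 11, against 2 in every epididymal library. Low values were therefore poorly resolved in inguinal fat, and the mean of the third value above the floor, 23.2, is used below as the limit under which a level cannot be told from the floor. The same limit was 4 in epididymal fat. Where 1 depot lay under its limit, the size of the difference is not resolved and the mean of the other depot is given relative to that limit. The adjusted p of such a gene rests on the same unresolved values, so how small it is is not resolved either. Correlation of log2 values over 11760 genes was 0.972 to 0.991 among the epididymal libraries, 0.859 to 0.921 among the inguinal libraries and 0.854 to 0.903 between the depots. A further feature moved with depot in C57BL/6: among genes with a mean value of at least 100, the median log2 difference was -0.36 for the 172 transcripts shorter than 800 nucleotides and 0.18 for the 479 of 8000 nucleotides or more. The same medians in 129S1/SvImJ were -0.06 and 0.07. The part of transcript length in the results was examined by removing each library's length trend.

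Marker genes placed all 9 libraries as adipose tissue. Adipoq (adiponectin, an adipocyte hormone) had values of 21259, 21259, 19917, 21259 and 21259 in epididymal replicates 1 to 5 and of 19917, 19361, 18270 and 19361 in inguinal replicates 1 to 4. Fabp4, the fatty acid binding protein of adipocytes, lay between 40624 and 45057 in epididymal and between 34576 and 45057 in inguinal fat. A pair of libraries stood apart by markers of other tissues. In epididymal replicate 3 the summed value of 20 skeletal muscle genes was 16242, against 546 to 1028 in the other 4 epididymal and 784 to 2659 in the inguinal libraries. In inguinal replicate 4 the summed value of 30 lymphocyte and lymph node genes was 6904, against 310 to 650 in the other 3 inguinal and 368 to 631 in the epididymal libraries. Markers of the epididymis and testis were near the floor throughout, with sums over 17 genes of 17 to 36.

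**Figure D1:**
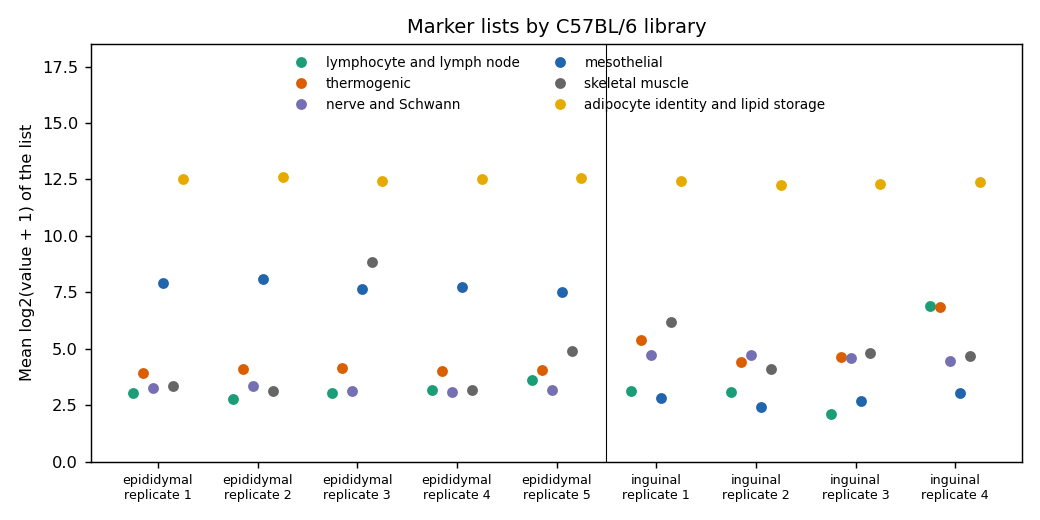
Mean log2(value + 1) of 6 marker lists (y axis) in each C57BL/6 library (x axis, 5 epididymal and 4 inguinal); each point is 1 list in 1 library. Mesothelial markers are lower in all 4 inguinal libraries, skeletal muscle markers are high in epididymal replicate 3, and lymphocyte and thermogenic markers are highest in inguinal replicate 4.

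Of 19838 genes tested, 1249 were higher and 2058 lower in inguinal than in epididymal fat at a Benjamini-Hochberg adjusted p under 0.05, which is 6.3% and 10.4% of the genes tested. The median log2 difference, inguinal minus epididymal, was -0.09 over all genes. The excess of lower calls came mostly from genes of low value. Among the 5550 genes with a mean under 5, 20 were called higher and 462 lower, whereas among the 730 genes with a mean of at least 1000, 89 were higher and 94 lower. For 698 of the lower calls (33.9%) and 83 of the higher calls both depot means lay under the limit of 23.2, so for these genes the sizes of the differences are not resolved. Among the 11859 genes with a mean of at least 20 the shares were nearer, 1125 higher (9.49%) and 1332 lower (11.2%). The depots did not overlap, with inguinal higher, for 7.54% of genes tested and, with inguinal lower, for 10.6%. The shares of 6.3% and 10.4% are the background for every list count below. Whichever C57BL/6 library was left out, 743 genes of the 19838 stayed higher and 1235 stayed lower. These are the background for the list calls said below to hold whichever library was left out. Without epididymal replicate 3 and inguinal replicate 4 the counts were 964 higher and 1564 lower. With the length trend removed they were 1189 higher and 1841 lower.

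**Figure D2:**
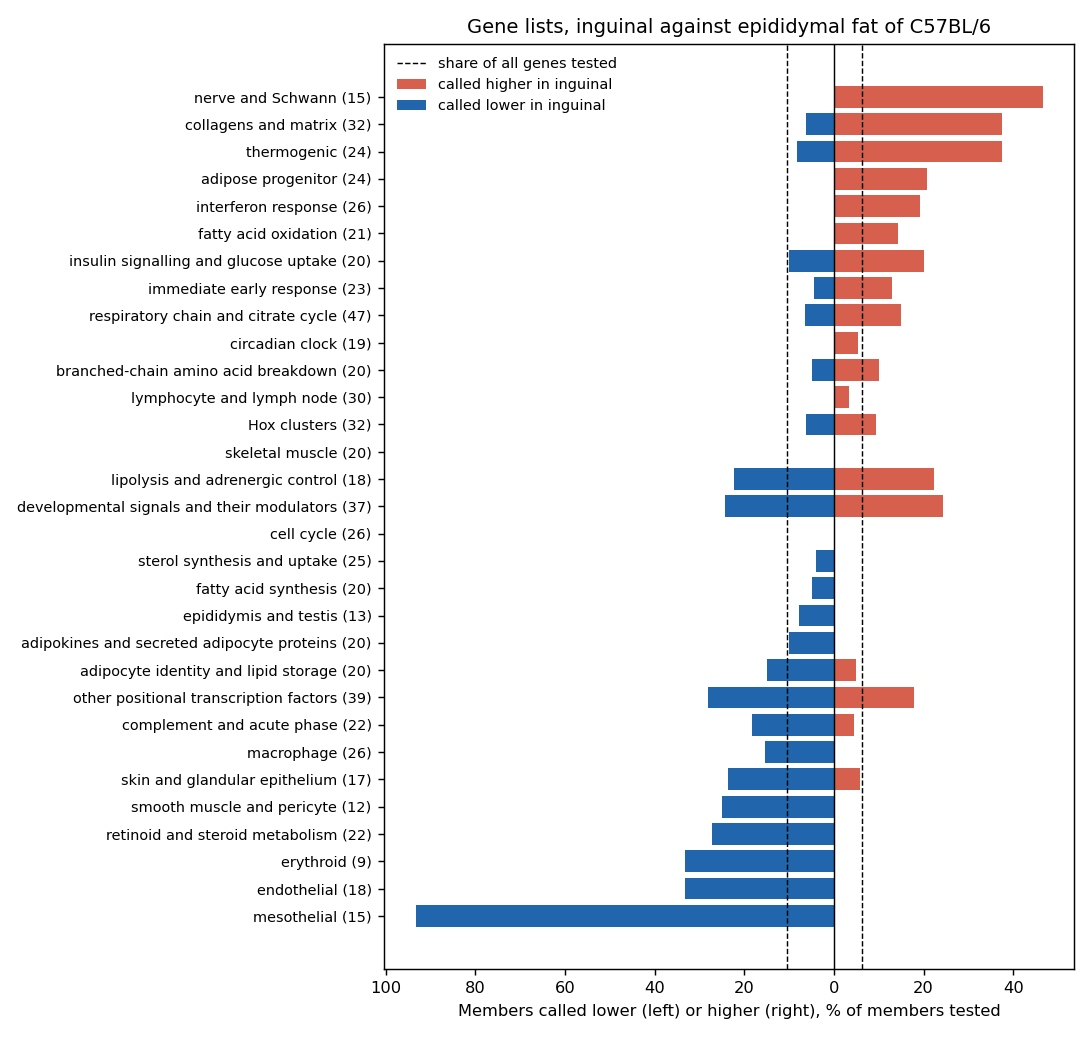
Share of the tested members of each of 31 gene lists called lower (blue, left) or higher (red, right) in inguinal fat of C57BL/6, in percent of the members tested, whose number follows the list name; dashed lines mark the share among all 19838 genes, 10.4% lower and 6.3% higher. The mesothelial list reaches 14 of 15 lower, and nerve and Schwann, matrix and thermogenic lists have the largest shares called higher.

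Some transcription factors of the positional code differed between the depots. Hox genes, whose order along their chromosomal clusters mirrors position along the body axis, gave 3 higher and 2 lower among 32 tested, counts near the 6.3% and 10.4% of all genes. All 5 calls held whichever C57BL/6 library was left out. Hoxc10 had values of 1, 1, 1, 2 and 1 in epididymal and 69, 53, 113 and 73 in inguinal fat, an inguinal mean 19.2 times the epididymal limit (adjusted p = 2.69e-08). Hoxa10 had 1, 1, 2, 1 and 2 against 42, 53, 41 and 43, an inguinal mean 11.2 times the limit (adjusted p = 1.9e-08). These posterior Hox genes were at or next to the floor in every epididymal library and above the limit in every inguinal library. Hoxa9 was lower in level, with 1, 3, 3, 4 and 3 against 8, 19, 21 and 39 (adjusted p = 0.00102), and both depot means lay under their limits. Hoxc4, an anterior member, went the other way, with 43, 35, 32, 38 and 38 in epididymal and 22, 1, 21 and 5 in inguinal fat (adjusted p = 0.0127), an epididymal mean 1.6 times the inguinal limit. Its fitted log2 difference was -2.11 with all libraries and -1.39 (adjusted p = 0.0265) without inguinal replicate 2, the library at the floor, and the call was lost without epididymal replicate 3 and inguinal replicate 4 (difference -1.97, adjusted p = 0.0521). The other 27 Hox genes tested did not pass, and the median over the 32 was -0.35.

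Of 39 other positional transcription factors tested, 7 were higher and 11 lower in inguinal fat, and 5 and 10 of these calls survived the removal of any 1 library. The median over the 39 was -0.01. Tbx15, a T-box factor of limb and trunk mesenchyme, had values of 162, 157, 113 and 86 in inguinal fat. In epididymal fat it had 3, 2, 3 and 3 in replicates 1, 2, 4 and 5 and 21 in replicate 3, the library with high muscle markers. Its log2 difference was 4.57 (SE 0.47, adjusted p = 3.88e-06) with all libraries. Without that library and inguinal replicate 4 it was 5.27, a size not resolved, since the epididymal values left lay under the limit of 4. Shox2, a homeobox factor of the developing limb, had 3, 3, 2, 3 and 2 in epididymal against 42, 27, 50 and 39 in inguinal fat (adjusted p = 4.14e-07), an inguinal mean 9.88 times the epididymal limit. Prrx1, a homeobox factor of limb and adipose mesenchyme, was present in both depots, at 123 to 141 in epididymal and 258 to 499 in inguinal fat (difference 1.6, SE 0.22, adjusted p = 9.72e-05). The depots did not overlap for any of these 3 genes.

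Factors that mark the visceral lining and its mesenchyme were higher in epididymal fat. Wt1, the Wilms tumour factor of mesothelium and visceral fat progenitors, had values of 84, 94, 79, 105 and 68 in epididymal fat and 1 in all 4 inguinal libraries. Against the limit of 23.2 it was at least 3.7-fold lower in inguinal fat (adjusted p = 2.77e-11). Bnc1 (basonuclin 1, a zinc finger protein) had 97, 90, 75, 104 and 86 against 1 in all 4, at least 3.89-fold lower (adjusted p = 7.21e-12). Isl1, Gata5 and Tcf21, with epididymal values of 11 to 28, were at 1 in all 4 inguinal libraries and passed the test, but their epididymal means lay at or under the limit. In 129S1/SvImJ, whose inguinal libraries were not coarse, the same 3 genes were lower in inguinal fat by 2.19, 3.12 and 3.5 on the log2 scale (adjusted p = 0.000184, 4.39e-06 and 5.23e-07). Osr1, a factor of intermediate mesoderm, had 98, 101, 94, 130 and 77 against 35, 19, 50 and 17 (difference -1.8, SE 0.33, adjusted p = 0.00111). Meis1, a Hox cofactor, had 192, 193, 140, 184 and 147 against 108, 86, 77 and 30 (difference -1.3, SE 0.27, adjusted p = 0.003). Inguinal replicate 4 was the lowest library for both.

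**Figure D3:**
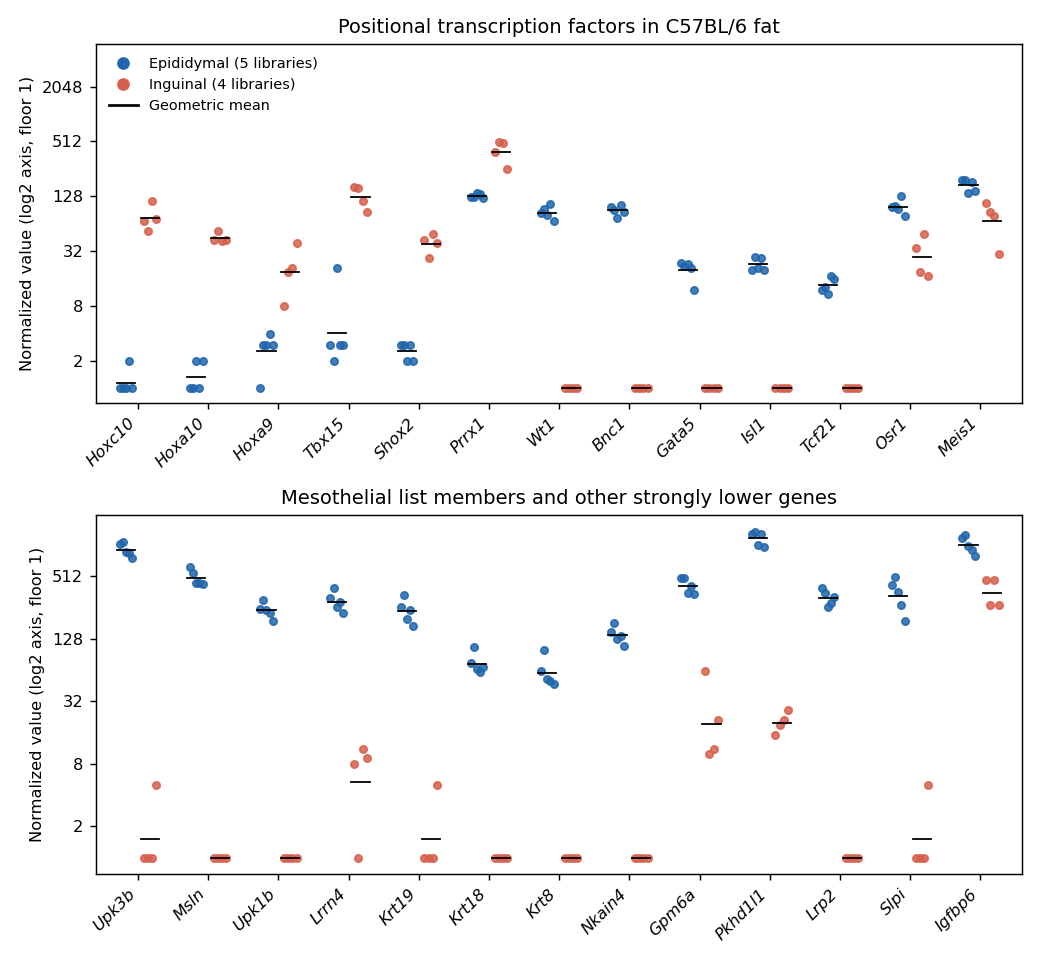
Normalized value (y axis, log2 scale, floor 1) of positional transcription factors (top) and of mesothelial list members and other genes with large negative differences (bottom) in 5 epididymal (blue) and 4 inguinal (red) libraries of C57BL/6; black lines are geometric means. Hoxc10, Hoxa10, Tbx15 and Shox2 are near the floor in epididymal fat except for Tbx15 at 21 in replicate 3, and Wt1, Bnc1, Msln and Upk1b are at 1 in all 4 inguinal libraries.

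Mesothelial genes gave the most negative fitted differences in the comparison. Of 15 list members tested, 14 were lower in inguinal fat and 0 higher, the median log2 difference was -5.41 (-2.11 with the 11 members whose inguinal mean lay under the limit set to their ratio to that limit), and all 14 calls held whichever library was left out and without epididymal replicate 3 and inguinal replicate 4. Upk3b, a uroplakin of the mesothelial surface, had values of 1029, 1079, 865, 848 and 755 in epididymal and 1, 1, 1 and 5 in inguinal fat (adjusted p = 2.02e-12), an epididymal mean 39.4 times the inguinal limit. Msln, mesothelin, had 624, 542, 442, 442 and 430 against 1 in all 4, at least 21.3-fold lower against the limit (adjusted p = 9.66e-16). Upk1b, another uroplakin, had 248, 301, 243, 226 and 190 against 1 in all 4, at least 10.4-fold lower (adjusted p = 3.61e-13). All 4 inguinal libraries were thus at or next to the floor for the defining markers. The summed value of the list was 3957 to 5887 in epididymal and 673 to 900 in inguinal fat.

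The keratins of simple epithelium moved with them. Krt19 had 256, 339, 196, 241 and 168 in epididymal fat against 1, 1, 1 and 5, an epididymal mean 10.3 times the limit (adjusted p = 6.52e-09). Krt8 lay at 47 to 99 and its partner Krt18 at 61 to 106 in epididymal fat, and both were at 1 in every inguinal library, at least 2.68-fold and 3.23-fold lower (adjusted p = 1.4e-08 and 8.25e-08). Gpm6a, a membrane glycoprotein, had 62, 10, 11 and 21 in inguinal fat, above the limit in replicate 1 alone, against 491, 487, 354, 409 and 344 (difference -4.32, SE 0.37, adjusted p = 3.75e-07). Igfbp6, a binding protein of insulin-like growth factors that other cells also make, fell less, from 1175, 1266, 1001, 905 and 799 to 470, 271, 465 and 267 (difference -1.51, SE 0.26, adjusted p = 0.000876). Cldn15, a tight junction protein, was the member that did not pass (difference -0.46, SE 0.26, adjusted p = 0.258). In these bulk samples fewer cells of a type and less RNA per cell cannot be told apart, here and in every later paragraph.

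Genes outside the list were also near the floor in inguinal fat. Lrp2 (megalin, an endocytic receptor of absorptive epithelia) had 396, 348, 258, 279 and 323 against 1 in all 4, at least 13.8-fold lower (adjusted p = 2.02e-12). Pkhd1l1, a large membrane protein, had 1301, 1367, 1020, 1291 and 973 against 15, 19, 21 and 26, an epididymal mean 51.2 times the limit (adjusted p = 6.51e-12). Slpi, a secreted inhibitor of leukocyte proteases, had 421, 498, 361, 266 and 189 against 1, 1, 1 and 5, an epididymal mean 14.9 times the limit (adjusted p = 1.13e-07). Every inguinal library lay far below the lowest epididymal library for all 3 genes. The 12 most negative fitted differences without overlap were Upk3b, Msln, Lrp2, Slpi, Upk1b, Krt19, Nkain4, Pkhd1l1, Rspo1, Bnc1, Wt1 and Lrrn4, and 8 of the 12 are mesothelial list members. That list holds 15 of the 19838 genes tested. It was chosen with earlier results of these data known, so the count is a description. Sizes under the inguinal limit are not resolved, so the order among these genes is not either.

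Schwann cell genes that passed the test were all higher in inguinal fat. Schwann cells wrap the axons of peripheral nerves. Of 15 nerve and Schwann genes tested, 7 were higher and 0 lower, all 7 whichever library was left out, with a median difference of 0.78. Cdh19, a cadherin of Schwann cells, had values of 5, 6, 5, 3 and 2 in epididymal fat against 88, 141, 104 and 65 (difference 4.28, SE 0.35, adjusted p = 2.62e-07). Prx (periaxin, of myelinating Schwann cells) had 13, 12, 13, 17 and 9 against 168, 280, 183 and 61 (difference 3.49, SE 0.4, adjusted p = 1.46e-05). Inguinal replicate 4 was the lowest of the 4 inguinal libraries for both genes. Ugt8a, the enzyme of galactosylceramide synthesis in myelin and no list member, had 1, 1, 2, 1 and 1 against 29, 53, 68 and 13 (adjusted p = 1.62e-05), an inguinal mean 10.2 times the epididymal limit.

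Thermogenic genes that passed the test were mostly higher in inguinal fat, by very different amounts in its 4 libraries. Of 24 tested, 9 were higher and 2 lower, and 7 and 2 of the calls survived the removal of any 1 library, with 6 and 2 without epididymal replicate 3 and inguinal replicate 4. The median difference was 1.28, against -0.09 over all genes, and 0.52 without those libraries. Ucp1 had a value of 1 in all 5 epididymal libraries and of 156, 1, 11 and 2108 in inguinal replicates 1 to 4. The depots overlapped, since inguinal replicate 2 was at the floor too. Its log2 difference of 4.73 (SE 1.44, adjusted p = 0.0318) rests on the floor and did not hold without any single epididymal library or without inguinal replicates 1 or 4: the adjusted p was then up to 0.0988 and the difference 2.96 without inguinal replicate 4.

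Other thermogenic genes did not overlap between the depots. Cidea, a lipid droplet protein of brown and beige adipocytes, had values of 16, 53, 22, 24 and 34 against 302, 191, 167 and 2118 (difference 3.74, SE 0.62, adjusted p = 0.000531), and without inguinal replicate 4 the difference was 2.91. Otop1, a proton channel, had 5, 11, 9, 5 and 7 against 115, 86, 59 and 413 (difference 3.96, SE 0.54, adjusted p = 9.58e-05). Prdm16, a transcriptional regulator of the beige state, was even across the inguinal libraries, at 295, 199, 183 and 183 against 47, 52, 43, 46 and 60 (difference 2.07, SE 0.26, adjusted p = 3.54e-05). Ppargc1a, a coactivator of mitochondrial genes, had 32, 35, 21, 28 and 25 against 102, 86, 77 and 227 (difference 1.97, SE 0.28, adjusted p = 0.000164). Cpt1b, the muscle-type carnitine palmitoyltransferase, had 22, 34, 57, 22 and 40 against 156, 93, 77 and 948 (difference 2.43, SE 0.62, adjusted p = 0.0118), and 1.63 without inguinal replicate 4. Inguinal replicate 4 was the highest library for Ucp1, Cidea, Otop1, Ppargc1a and Cpt1b and not for Prdm16. The same library carried the high lymphocyte sum given above, whose part in the result was not tested. Ckb, the brain-type creatine kinase, was lower, at 208, 206, 220, 199 and 243 against 129, 61, 77 and 77 (difference -1.37, SE 0.25, adjusted p = 0.00134).

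Mitochondrial fuel use is the wider program behind heat production. Among 21 genes of fatty acid oxidation 3 were higher and 0 lower, with a median of 0.31, and of 0.14 without epididymal replicate 3 and inguinal replicate 4. The summed value of the list was 36768 in inguinal replicate 4 and 21167 to 25216 in the other inguinal libraries. Etfa, an electron transfer flavoprotein subunit, had 298, 313, 313, 330 and 308 against 600, 483, 474 and 773 (difference 0.87, SE 0.19, adjusted p = 0.00442). Among 47 genes of the respiratory chain and citrate cycle 7 were higher and 3 lower, 4 and 2 whichever library was left out, with a median of 0.03. Without that pair of libraries the counts were 1 higher for fatty acid oxidation, and 2 higher and 2 lower for the respiratory chain. With the length trend removed, fatty acid oxidation gave 5 higher and 0 lower, with a median of 0.37. The respiratory chain and citrate cycle then gave 10 higher and 2 lower, with a median of 0.19. The subunits named here moved in different directions and are single members of the list. Cox5b of cytochrome c oxidase had 44, 50, 39, 46 and 38 against 143, 86, 150 and 154 (difference 1.57, SE 0.21, adjusted p = 9.77e-05), while Uqcrq and Ndufb3, small subunits of the neighbouring complexes, fell by 1.06 and 0.76 (adjusted p = 0.00283 and 0.0101).

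**Figure D4:**
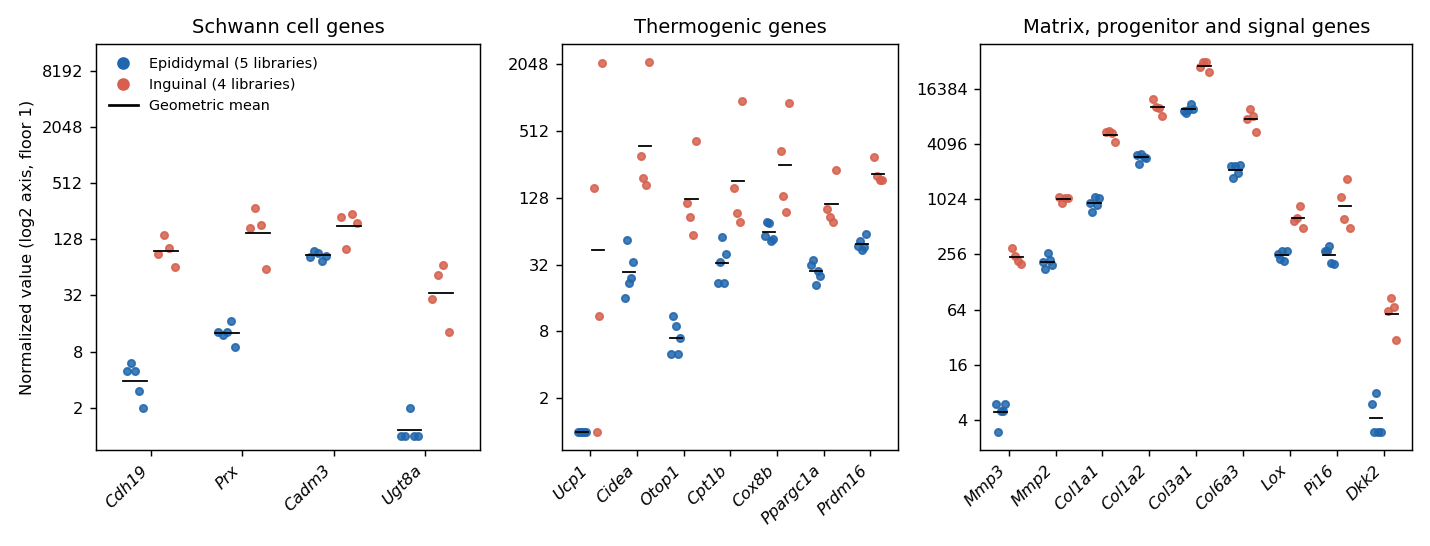
Normalized value (y axis, log2 scale, floor 1) of Schwann cell genes (left), thermogenic genes (middle) and matrix, progenitor and signal genes (right) in 5 epididymal (blue) and 4 inguinal (red) libraries of C57BL/6; black lines are geometric means. The spread among inguinal libraries is widest for Ucp1, from 1 to 2108, and narrow for Mmp2, from 921 to 1097.

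Collagen and matrix genes that passed the test were mostly higher in inguinal fat. Of 32 tested, 12 were higher and 2 lower, 10 and 1 whichever library was left out, with a median of 0.22. Without epididymal replicate 3 and inguinal replicate 4 there were 12 higher and 1 lower. Col1a1, which with Col1a2 forms fibrillar type I collagen, had 942, 747, 1082, 888 and 1053 in epididymal and 5577, 5653, 5376 and 4302 in inguinal fat (difference 2.47, SE 0.19, adjusted p = 8.84e-08), a 5.56-fold change. Col1a2 had 3133, 2505, 3200, 2964 and 2860 against 12799, 10492, 10085 and 8182 (difference 1.81, SE 0.16, adjusted p = 6.3e-07). Col6a3 of the microfibrillar type VI collagen had 2344, 1738, 2370, 1999 and 2392 against 7693, 9949, 8365 and 5536 (difference 1.84, SE 0.18, adjusted p = 1.82e-06). Col3a1 differed by 1.58 (SE 0.15, adjusted p = 1.18e-06), and the collagen cross-linking enzyme Lox by 1.34 (SE 0.28, adjusted p = 0.00367). Col4a1, a chain of basement membrane collagen, did not pass, at 8264 to 12327 against 8065 to 14237.

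Proteases that digest matrix were also higher. Mmp3, stromelysin, had values of 6, 3, 5, 5 and 6 in epididymal and 302, 247, 217 and 203 in inguinal fat (difference 5.35, SE 0.3, adjusted p = 1.91e-09), a 40.9-fold change. Mmp2, gelatinase A, had 214, 176, 263, 221 and 195 against 1097, 921, 1063 and 1063 (difference 2.28, SE 0.16, adjusted p = 2.84e-08). Thbs1, thrombospondin 1, a matrix glycoprotein, was lower, with 1991, 1111, 1325, 1942 and 1153 against 190, 199, 269 and 347 (difference -2.57, SE 0.49, adjusted p = 0.00157), while its relative Thbs2 was higher, by 1.09 (SE 0.27, adjusted p = 0.0104). Genes outside the lists, Il1r2 (a decoy receptor for interleukin 1) and Cxcl14 (a chemokine), were higher too, Il1r2 with an inguinal mean 36.8 times the epididymal limit and Cxcl14 by 4.13. Among 24 genes of adipose progenitors, the stromal cells that give rise to adipocytes, 5 were higher and 0 lower, all 5 whichever library was left out, with a median of 0.03. Pi16, which marks an interstitial progenitor population, had 276, 280, 313, 207 and 203 against 1078, 627, 1684 and 494 (difference 1.78, SE 0.35, adjusted p = 0.00234). Lum (lumican), Ly6a, Efhd1 and the receptor Pdgfra were higher by 1.13, 0.89, 1.47 and 0.5.

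The proximal promoters of 4 genes with large differences are shown for their sequence, 2 higher in inguinal fat (Shox2 and Mmp3) and 2 lower (Upk3b and Bnc1). They are the 250 bases before the gene start from RefSeq on GRCm38.p6, a later build than the mm9 named for the deposited values, read 5′ to 3′ on the gene's strand. Capitals mark the letters of a TATA box (TATAAA) or a GC box (GGGCGG) at any position, searched on both strands together with the CCAAT box (CCAAT). Whether a match works as such a box was not tested.
Shox2, chr3:66981772-66982021, minus strand: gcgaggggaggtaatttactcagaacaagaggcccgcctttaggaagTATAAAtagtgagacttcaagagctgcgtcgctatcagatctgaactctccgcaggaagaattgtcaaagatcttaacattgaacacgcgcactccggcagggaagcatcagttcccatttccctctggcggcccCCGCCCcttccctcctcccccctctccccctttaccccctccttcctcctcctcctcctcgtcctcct
Mmp3, chr9:7445572-7445821, plus strand: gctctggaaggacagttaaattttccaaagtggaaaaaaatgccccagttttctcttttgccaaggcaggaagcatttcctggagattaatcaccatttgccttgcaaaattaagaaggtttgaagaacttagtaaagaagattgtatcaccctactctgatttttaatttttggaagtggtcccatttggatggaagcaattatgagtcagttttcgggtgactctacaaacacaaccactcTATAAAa
Upk3b, chr5:136038246-136038495, plus strand: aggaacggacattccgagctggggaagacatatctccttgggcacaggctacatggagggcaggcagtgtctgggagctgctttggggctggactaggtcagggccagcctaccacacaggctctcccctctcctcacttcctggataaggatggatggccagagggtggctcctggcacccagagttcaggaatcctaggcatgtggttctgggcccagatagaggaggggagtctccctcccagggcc
Bnc1, chr7:81992300-81992549, minus strand: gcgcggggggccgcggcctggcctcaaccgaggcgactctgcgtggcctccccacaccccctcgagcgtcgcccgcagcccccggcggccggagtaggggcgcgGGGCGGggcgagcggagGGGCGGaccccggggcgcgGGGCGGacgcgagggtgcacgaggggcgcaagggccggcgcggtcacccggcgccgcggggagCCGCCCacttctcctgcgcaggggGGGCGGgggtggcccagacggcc
TATAAA occurred once in Shox2, where it begins 203 bases before the start, and once in Mmp3, where it begins 7 bases before it. It occurred in 12.4% of 32851 RefSeq promoter windows of the same length. GGGCGG occurred 5 times in Bnc1 and once in Shox2, and in 32.7% of all windows. CCAAT occurred in none of the 4 and in 33.8% of all windows, and Upk3b held none of the 3 motifs. The GC content was 83.6% in Bnc1, 60.8% in Upk3b, 55.6% in Shox2 and 37.6% in Mmp3.

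Developmental signals and their modulators were called in both directions. Of 37 tested, 9 were higher and 9 lower in inguinal fat, 6 and 7 whichever library was left out. Dkk2, a secreted Wnt antagonist, had 6, 3, 8, 3 and 3 against 62, 86, 68 and 30 (difference 3.48, SE 0.34, adjusted p = 2.11e-06). Igf1, insulin-like growth factor 1, had 1042, 1193, 985, 1135 and 955 against 2130, 2284, 1879 and 1528 (difference 0.87, SE 0.13, adjusted p = 0.000239). Its binding protein Igfbp5 and the growth factor Fgf10 rose by 0.93 and 0.88 (adjusted p = 0.00254 and 0.00623). Rspo1, a Wnt agonist, had 142, 157, 113, 139 and 119 in epididymal fat against 8, 1, 1 and 1, an epididymal mean 5.76 times the inguinal limit (adjusted p = 1.9e-08). Bmp4, a ligand of the TGF-beta superfamily, had 85, 76, 78, 81 and 83 against 22, 19, 1 and 13 (adjusted p = 0.00086), an epididymal mean 3.47 times that limit. Fgf1, a fibroblast growth factor active in fat, had 1020, 1055, 909, 966 and 854 against 235, 329, 491 and 104 (difference -1.93, SE 0.39, adjusted p = 0.00268). For each of these ligands and antagonists the depots did not overlap.

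In retinoid and steroid metabolism the calls were on the epididymal side, with 0 of 22 genes higher and 6 lower in inguinal fat. Aldh1a2, which makes retinoic acid from retinal, had 107, 102, 89, 110 and 81 against 8, 1, 1 and 13 (adjusted p = 2.27e-05), an epididymal mean 4.21 times the inguinal limit. Dhrs3, which reduces retinal to retinol, had 1235, 1248, 1195, 1231 and 1351 against 941, 680, 834 and 662 (difference -0.7, SE 0.15, adjusted p = 0.00403). Star, the cholesterol importer of mitochondria, fell by 1.35 (SE 0.23, adjusted p = 0.000753).

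Adipocyte genes differed by small amounts. Among 20 genes of adipocyte identity and lipid storage 1 was higher and 3 lower, with a median of -0.19. Pparg, the master regulator of adipocytes, had 1795, 1656, 1749, 1825 and 1693 against 1369, 1781, 1640 and 1007 (difference -0.3, SE 0.17, adjusted p = 0.244). Adipoq and Fabp4 differed by -0.13 and -0.16 (SE 0.13 and 0.15, adjusted p = 0.561 and 0.519). The calls that held whichever library was left out were Gpam and Cidec. Gpam, which starts glycerolipid synthesis, had 2894, 3602, 2786, 3417 and 2951 against 1428, 1471, 1496 and 1623 (difference -1.05, SE 0.17, adjusted p = 0.00049). Cidec, a lipid droplet fusion protein, had 28615, 27671, 28615, 27671 and 27671 against 17430, 11421, 12799 and 16663 (difference -0.97, SE 0.16, adjusted p = 0.000666). In both genes every inguinal library lay below every epididymal library.

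Among 20 adipokines and other proteins secreted by adipocytes 0 were higher and 2 lower, against 6.3% and 10.4% of all genes tested. The lower count is near that background, and 1 of the calls held whichever library was left out. Agt, angiotensinogen, had 987, 1208, 1356, 1166 and 912 against 136, 109, 150 and 34 (difference -3.56, SE 0.49, adjusted p = 9.84e-05). Lep, leptin, had 9248, 5876, 10887, 7601 and 9685 in epididymal and 5996, 8939, 13444 and 3791 in inguinal fat. The leptin ranges overlapped widely (difference -0.23, SE 0.34, adjusted p = 0.715), and the sign turned, to 0.08, without inguinal replicate 4. Among 18 genes of lipolysis and its hormonal control 4 were higher and 4 lower, 2 and 1 whichever library was left out. The adenosine receptor Adora1, which restrains lipolysis, had 546, 601, 506, 481 and 618 against 1174, 797, 896 and 822 (difference 0.73, SE 0.16, adjusted p = 0.00421). The natriuretic peptide receptor Npr1 fell by 0.65 (SE 0.15, adjusted p = 0.00692).

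Insulin signalling gave 4 higher and 2 lower of 20, 4 and 1 whichever library was left out. Foxo1, a transcription factor that insulin restrains, had 277, 241, 266, 279 and 288 against 538, 546, 548 and 593 (difference 1.04, SE 0.16, adjusted p = 0.000342). Irs1, an insulin receptor substrate, had 657, 922, 755, 906 and 640 against 1538, 1883, 1100 and 1368 (difference 0.91, SE 0.17, adjusted p = 0.00113). Grb14, an inhibitor of the insulin receptor, had 85, 69, 128, 76 and 95 against 190, 410, 438 and 191 (difference 1.67, SE 0.29, adjusted p = 0.000749). Akt1 fell by 0.46 (SE 0.1, adjusted p = 0.00559). In lipid synthesis, 0 of 20 genes of fatty acid synthesis were higher and 1 lower (median -0.16), and 0 of 25 sterol genes were higher and 1, Ebp, lower (difference -0.8, SE 0.14, adjusted p = 0.000784). Both counts lie under the background shares of 6.3% and 10.4%. Branched-chain amino acid breakdown gave 2 higher and 1 lower of 20, against the same shares, and 1 higher and 1 lower without epididymal replicate 3 and inguinal replicate 4.

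Endothelial genes that passed the test were lower in inguinal fat. Among 18 endothelial genes 0 were higher and 6 lower, with a median of -0.42, but 2 of the 6 calls held whichever library was left out and 2 were called without epididymal replicate 3 and inguinal replicate 4. Egfl7, a protein secreted by endothelial cells, had 903, 725, 847, 833 and 1037 against 526, 531, 491 and 326 (difference -0.91, SE 0.19, adjusted p = 0.003). Emcn (endomucin) had 207, 185, 176, 179 and 179 against 88, 117, 104 and 114 (difference -0.81, SE 0.21, adjusted p = 0.0135). In 129S1/SvImJ 2 endothelial genes were higher and 0 lower in inguinal fat, with a median of 0.35. In smooth muscle and pericyte genes 0 of 12 were higher and 3 lower, and 0 were called without those libraries. Macrophage genes gave 0 higher and 4 lower of 26, against 6.3% and 10.4% of all genes tested. Of these 4 calls, that of Mertk, a receptor for uptake of dying cells (difference -0.74, SE 0.15, adjusted p = 0.00286), held whichever library was left out. Of 22 complement and acute phase genes 1 was higher and 4 lower, 1 and 2 with any 1 library left out, and 2 and 2 without epididymal replicate 3 and inguinal replicate 4. C7, a terminal complement component, had 186, 241, 263, 200 and 198 against 1286, 1083, 904 and 490 (difference 2.03, SE 0.26, adjusted p = 4.98e-05).

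Among 26 interferon response genes 5 were higher and 0 lower, with 1 left whichever library was left out and 1 without epididymal replicate 3 and inguinal replicate 4. Of 30 lymphocyte and lymph node genes 1 was higher, and 0 without those libraries. In C57BL/6 the high values of this list were those of inguinal replicate 4. In 129S1/SvImJ 0 of the 30 were called, with a median difference of 2.49. Among 20 skeletal muscle genes limma called 0 higher and 0 lower (2 at an unadjusted p under 0.05), but 3 higher without epididymal replicate 3 and inguinal replicate 4. Of 26 cell cycle genes limma called 0 (3 at an unadjusted p under 0.05), and of 13 epididymis and testis genes 1 was lower. Immediate early genes, which respond quickly to stimuli, gave 3 higher and 1 lower of 23, against 6.3% and 10.4% of all genes tested. Fosb had 20, 18, 17, 18 and 8 against 62, 61, 260 and 73 (difference 2.5, SE 0.51, adjusted p = 0.00288). Of 19 clock genes Hlf was called, at 56 to 77 against 167 to 242 (difference 1.52, SE 0.22, adjusted p = 0.000201). Erythroid genes gave 3 lower of 9, among them the identical copies Hba-a1 and Hba-a2, whose values are the same and so uncertain, and skin and glandular epithelium 1 higher and 4 lower of 17. Krt14, a keratin of basal epithelium, had 58, 54, 15, 20 and 14 in epididymal fat against 1 in all 4 inguinal libraries. The epididymal values of 15, 20 and 14 lay under the inguinal limit of 23.2, so the size of this difference is not resolved.

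In 129S1/SvImJ the same comparison called 144 genes higher (0.726%) and 310 lower (1.56%) of 19838, 2.29% together. Of the 3307 genes called in C57BL/6, 2124 (64.2%) had a difference of the same sign in 129S1/SvImJ, called there or not. Among the 3307, 268 were also called in the same direction in 129S1/SvImJ and 8 in the opposite direction. The 268 are 8.1% of the C57BL/6 calls and 59% of the 129S1/SvImJ calls. The mesothelial list was lower in that strain too, 12 of 15 members with a median of -4.72, and Hoxc10, Hoxa10, Tbx15 and Shox2 were higher there too, by fitted differences of 3.99, 4.19, 4.5 and 3.39 over epididymal values near the floor. The depot differences of these 4 genes did not depart between the strains at the threshold, with differences between strains of 1.12, 0.08, 0.07 and 0.08 (SE 0.51, 0.42, 0.68 and 0.43). Their C57BL/6 epididymal values lay under the limit of 4, apart from Tbx15 in replicate 3. The sizes are therefore not resolved, and these values cannot tell whether the depot differences were equal in the strains.

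The depot difference itself differed between the strains for 331 genes in the positive and 326 in the negative direction (3.31% of 19838 together). These counts rest on which C57BL/6 libraries are in the fit: they lay between 188 and 214 (positive) and between 190 and 210 (negative) without epididymal replicate 1, 2, 3 or 5, and at 562 and 575 without inguinal replicate 4. Of the 657 genes, 575 were also called within C57BL/6. Mmp2 was among the 6 smallest p-values in the positive direction, with values of 598, 640, 440 and 595 in epididymal and 593, 889, 1065 and 834 in inguinal fat of 129S1/SvImJ. Its depot difference was larger in C57BL/6 by 1.73 (SE 0.23, adjusted p = 0.00112). The inguinal ranges of the strains overlapped, and the C57BL/6 epididymal level of 176 to 263 lay below the other 3 groups. Igf1, at 990 to 1343 in epididymal and 1022 to 1298 in inguinal fat of 129S1/SvImJ, differed by 0.93 more in C57BL/6 (SE 0.19, adjusted p = 0.0139), and Foxo1 by 1.16 (SE 0.24, adjusted p = 0.014). Cdh19 differed by 2.64 more (SE 0.51, adjusted p = 0.0101) and Ppargc1a by 1.94 (SE 0.41, adjusted p = 0.0162). Egfl7 had the opposite depot order in 129S1/SvImJ, 180, 224, 187 and 356 against 386, 448, 415 and 343, and a difference between strains of -1.7 (SE 0.27, adjusted p = 0.00394). Slpi, at 26, 37, 37 and 56 against 23, 2, 2 and 9, fell by less in that strain (difference between strains -4.46, SE 0.78, adjusted p = 0.00658), a size that is not resolved because its C57BL/6 inguinal values lay under the limit. The named results in this paragraph held whichever C57BL/6 library was left out.

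Many of these genes set the C57BL/6 epididymal libraries apart from all others. For 241 of the 575 genes (41.9%) the 5 C57BL/6 epididymal libraries lay wholly above or wholly below the 12 other libraries, against 4.79% of all genes tested. Both calls that select the 575 genes use the C57BL/6 epididymal libraries and favour such genes, so the 2 shares are given as a description. Tbca, a tubulin cofactor, had 30, 31, 31, 34 and 36 there, against 118 to 150 in C57BL/6 inguinal fat and 68 to 133 in both depots of 129S1/SvImJ. Kpna4, a nuclear import receptor, had 411 to 463 there against 815 to 1023 and 822 to 1016. Rpl41, a ribosomal protein gene with near-identical copies and so uncertain, had 1459 to 1852 in C57BL/6 epididymal and 216 to 418 in C57BL/6 inguinal fat, against 520 to 1235 in 129S1/SvImJ. Of 84 ribosomal protein genes, chosen after their values were seen and many with copies elsewhere in the genome, 11 were higher and 22 lower in C57BL/6 inguinal fat and 1 and 0 in that of 129S1/SvImJ. With the length trend removed these counts in C57BL/6 were 15 and 16. The 6 smallest p-values in each direction also included Mtrnr2l, Snord22 and Arf4 (positive) and Rpsa, Ubb, Serpina3b, Tubb3 and Gp5 (negative), of which Mtrnr2l, Snord22, Rpsa and Ubb have copies or overlap other genes and are uncertain. Whether such genes follow depot or experiment cannot be told apart in C57BL/6.

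**Figure D5:**
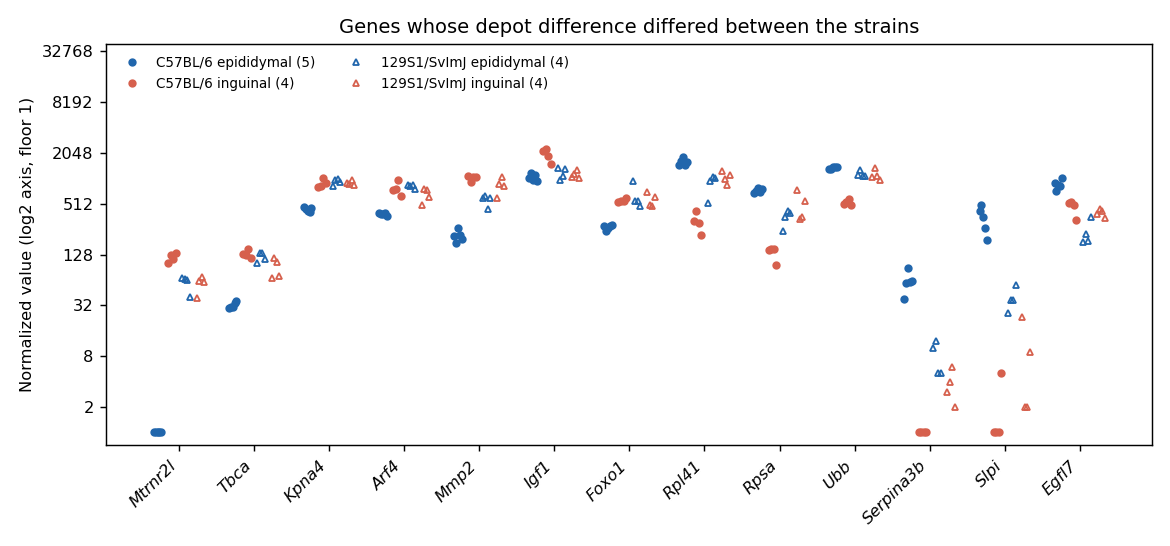
Normalized value (y axis, log2 scale, floor 1) of 13 genes whose depot difference differed between the strains, in the 4 groups of libraries (circles C57BL/6, triangles 129S1/SvImJ, blue epididymal, red inguinal); each point is 1 library. For Tbca, Kpna4, Arf4 and Mmp2 the C57BL/6 epididymal libraries lie below the 12 others.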

How the data were processed

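RNA-seq of 9 C57BL/6 libraries (5 epididymal, 4 inguinal) and 8 of 129S1/SvImJ was analysed. The deposited values are whole numbers on a normalized scale and were treated as a score, since the libraries share 1 maximum, a floor of 1 and near-equal totals. The submitters' processing notes name HOMER and mm9, and the authors' normalization step was not given in these sources. Read depth is unknown, so no counting interval is given. Of 28644 transcript rows the row with the highest total was kept for each of 22869 symbols, and 19838 symbols that varied were tested.

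Values were analysed as log2(value + 1), so a fold understates the change of low genes. One limma model (version 3.58.1 in R 4.3.3, trend and robust options) held the 4 groups. It gave the inguinal minus epididymal difference in each strain and the difference between strains, two-sided, with Benjamini-Hochberg adjustment over all genes. The model was also run on simulated data in which each gene had the same spread in all groups. That run cannot check the model for the coarser and less alike C57BL/6 inguinal libraries. Named genes are the 12 largest differences per direction without overlap at a mean value of at least 20, members of 31 lists, and the 6 smallest p-values per direction for the strain difference. List members described in full were picked from those passing the test, after their values were seen. A few genes that these rules name are not reported here. The members and lists were chosen with earlier results of these data known. Each C57BL/6 library was left out in turn, and other pseudocounts, scalings, filters, weights and a replicate block were tried.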

Additional observations from a re-analysis of the deposited data

Results flagged for a closer look

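Of 251 groups of C57BL/6 libraries checked, single genes and list means together, 25 held a library far from the rest. The cutoff flags about 1 in 20 groups by chance only where values are continuous. Here many values are tied steps, and Hba-a1 and Hba-a2 are identical, so the 25 cannot be read as an excess over chance. In epididymal fat these were Adipoq at 19917 and Tbx15 at 21 and Ugt8a at 2 in replicate 3, Fabp4 at 40624, Fgf10 at 161, Fosb at 8 and Gata5 at 12 in replicate 5, Hba-a1 and Hba-a2 at 727, Mertk at 343 and Mmp3 at 3 in replicate 2, Hoxa9 at 1 in replicate 1 and Hoxc10 at 2 in replicate 4. In inguinal fat they were Egfl7 at 326, Rpsa at 95 and Krt19, Slpi and Upk3b at 5 in replicate 4, Cox5b at 86 and Lrrn4 at 1 in replicate 2, Fosb at 260 in replicate 3 and Rspo1 at 8 in replicate 1. Several of these are single steps above the floor, and for Adipoq the other epididymal libraries share the same value. Among list means on the log2 scale, epididymal replicate 2 stood apart for sterol genes at 7.29 and erythroid genes at 6.62, and inguinal replicate 2 for epididymis and testis genes at 1.14.

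For 33 named genes the depot difference of C57BL/6 differed from that of 129S1/SvImJ in the test of the difference itself (limma, adjusted p under 0.05). Over all genes tested 3.31% were called in this test, against 4 of 32 collagen and matrix genes. The counts were 7 of 37 for developmental signals and 2 of 20 for insulin signalling. The differences between strains, on the log2 scale, were positive for the matrix list members named: 1.73 for Mmp2, 2.03 for Mmp3 and 1.97 for Thbs2. Lum had 1.52 and was the only gene called of 24 in the adipose progenitor list. For the Schwann cell gene Cdh19 the value was 2.64. Growth factor and insulin pathway genes had 0.93 for Igf1, 1.3 for Igfbp5, 1.22 for Fgf10, 1.98 for Dkk2, 1.16 for Foxo1 and 1.14 for Irs1. Single genes were Cox5b with 1.63, Etfa with 1.49 and Ppargc1a with 1.94. Cox5b was the only gene called of 47 in the respiratory chain and citrate cycle. Etfa was the only one of 21 in fatty acid oxidation. C7 had 1.74, Hlf had 1.49 and Fosb had 3.61, each the only gene called in its list, of 22, 19 and 23 tested. Negative values were -4.46 for Slpi, -2.72 for Krt19, -2.26 for Krt18, -1.7 for Egfl7 and -0.9 for Cidec. Cidec was the only gene called of 20 in adipocyte identity and lipid storage. The sizes for Slpi, Krt19 and Krt18 are not resolved, since their C57BL/6 inguinal means lay under the limit. The 12 genes with the smallest p-values had, besides Mmp2, 5.93 for Mtrnr2l, 2.42 for Tbca, 1.08 for Kpna4, 4.24 for Snord22, 1.34 for Arf4, -2.66 for Rpl41, -2.9 for Rpsa, -1.32 for Ubb, -4.01 for Serpina3b, -2.39 for Tubb3 and -1.73 for Gp5.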

How the results depend on the processing

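For the C57BL/6 depot comparison, leaving out 1 library at a time gave 904 to 1333 genes higher and 1518 to 2159 lower in inguinal fat. For the difference between strains the same gave 188 to 562 positive and 190 to 575 negative calls. Of 103 named genes, 95 kept their direction and their side of the threshold in the C57BL/6 comparison under all alternatives run. The sign turned for genes that had not passed the test: Adipoq (0.05) and Fabp4 (0.06) with the length trend removed, and Lep, from -0.53 to 0.08 with 1 library left out (0.08 without inguinal replicate 4) and 0.17 without that library and epididymal replicate 3. The length correction and the removal of that pair of libraries were chosen after seeing the data. Of 33 named differences between strains, 24 held under all alternatives, and those of Cidec, Krt18, Dkk2, Fgf10 and Lum were lost under 5 or more. The cause was not tested. With replicate numbers as a replicate block, 652 genes were higher and 1154 lower, 603 and 1061 of them shared with the calls reported, and 18406 genes were tested. Deviations of same-numbered libraries from their depot means had correlations of -0.0653, -0.00866, 0.0449 and 0.0874. With so few libraries behind each mean these values cannot decide whether the samples were paired. The numbers were not taken to pair the samples because the labels do not state that they name the same mouse. Low values limit the comparison, since inguinal levels under 23.2 cannot be told from the floor.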
